A study of Mus musculus with 9 samples.

Results

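The genes described here build, shape, clear and supply mitochondria, and they were followed in proximal tubular epithelial cells of lean and diabetic mice. They are 10 genes picked by symbol for their known roles: Ppargc1a, Nrf1, Esrra, Tfam, Mfn1, Mfn2, Opa1, Dnm1l, Pink1 and Tomm20. The rule for picking them uses no measured value, but earlier results of these data were known when they were chosen. All 10 were found among the 24421 genes of the deposited table, and all 10 were among the 15583 that passed the filter on low values. None of the 10 was called different between any 2 groups. Of the 10, Ppargc1a stood furthest from the db/m level: its mean was 1.62-fold higher in db/db mice and 1.47-fold higher in db/db-dapa mice, and neither difference reached the adjusted threshold.

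The proximal tubule reabsorbs most of the filtered glucose and solutes and is among the tissues richest in mitochondria. The coactivator PGC-1alpha, encoded by Ppargc1a, works with transcription factors such as NRF1 and ERRalpha to raise expression of nuclear genes for mitochondrial proteins. Among these is TFAM, which packages the mitochondrial genome and is a factor in its transcription. Mitochondria fuse through the mitofusins and OPA1 and divide through DRP1, and damaged ones are marked for removal by the kinase PINK1, while the TOM complex admits the proteins they import.

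The samples fell into 3 groups. The db/m mice, heterozygous at the leptin receptor locus, were nondiabetic controls without drug. The db/db mice, which lack a working leptin receptor and are obese and diabetic, received vehicle for 8 weeks, and the db/db-dapa mice received dapagliflozin, an inhibitor of the glucose transporter SGLT2, at 1.5 mg/kg/day in the drinking water for 8 weeks. Every mouse, controls included, was on a C57BL/6 background and carried SLC34a1GCE, a tamoxifen-dependent Cre recombinase placed in the Slc34a1 locus, with the R26tdTomato reporter, and was given tamoxifen from 8 weeks of age. Cells positive for tdTomato were sorted from the cortex by the methods given for the study, whereas the sample labels name kidney as the source. Each library held the RNA of 1 mouse, with 3 mice a group.

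Proximal tubule markers had the highest sum of the marker lists in every library: the 10 markers together came to 14010 to 16050 CPM (counts scaled to library size) in db/m, 16350 to 20350 CPM in db/db and 17790 to 21720 CPM in db/db-dapa mice. Slc34a1, the gene whose locus drives the Cre, lay at 3530 to 4154 CPM in db/m, 4404 to 6196 CPM in db/db and 4464 to 4631 CPM in db/db-dapa mice. Both the sum and Slc34a1 were thus higher in every diabetic mouse than in every db/m mouse. Markers of other kidney cells were present at lower levels. The loop of Henle, distal tubule and collecting duct list of 8 genes came to 1181 to 2779 CPM in db/m, 957 to 1942 CPM in db/db and 857 to 1046 CPM in db/db-dapa mice, so that the treated mice lay below all db/m mice. The leukocyte list of 5 came to 82.6 to 440 CPM, and no marker was at 0 in all mice. Thus the proximal tubule sum moved with both comparisons versus db/m, and the loop of Henle, distal tubule and collecting duct sum with that of the treated mice. The leukocyte ranges overlapped between all groups. What part these sums had in the results that follow was not tested. Libraries held 2733314 to 9033062 counts, so that 3 counts corresponded to 0.339 to 1.02 CPM. On the first principal component of all genes, which held 41.7% of the variance, db/db replicate 3 and db/db-dapa replicates 2 and 3 stood apart from the other 6 mice, with scores of 45.0, 36.7 and 45.9 versus -49.5 to -1.10. Those 3 libraries were also the deepest, with 7635630, 7626047 and 9033062 counts, and had the lowest leukocyte sums, 104, 146 and 82.6 CPM. The part of depth or of leukocyte RNA in those results was not tested either. Fits without these 3 libraries leave db/db-dapa replicate 1 as the only treated mouse, so their treated values rest on that mouse alone.

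Per base of transcript, the 10 genes spanned a wide range. Taking CPM per kilobase of the longest coding transcript in GENCODE vM21, the db/m mice had the highest level for Pink1, 132 ± 17.6 (SD, n = 3), followed by Esrra at 87.5 ± 12.5 and Tomm20 at 59.9 ± 6.92. Mfn2 at 29.0 ± 2.47 and Mfn1 at 26.4 ± 1.18 came next, then Dnm1l at 19.8 ± 2.26 and Opa1 at 17.1 ± 1.06, and then Tfam at 12.3 ± 2.04, Ppargc1a at 8.28 ± 0.560 and Nrf1 at 3.92 ± 0.725. The proteins that mark damaged mitochondria or import cargo thus had messages well above those of the regulators, apart from Esrra. In the db/m mice the ranges of Mfn2 and Mfn1 overlapped, as did those of Dnm1l and Opa1, and the other 7 neighbouring pairs did not. The order was nearly the same in diabetes: Ppargc1a moved ahead of Tfam in db/db mice and Opa1 ahead of Dnm1l in db/db-dapa mice, and in both cases the values of the 2 genes overlapped.

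**Figure D1:**
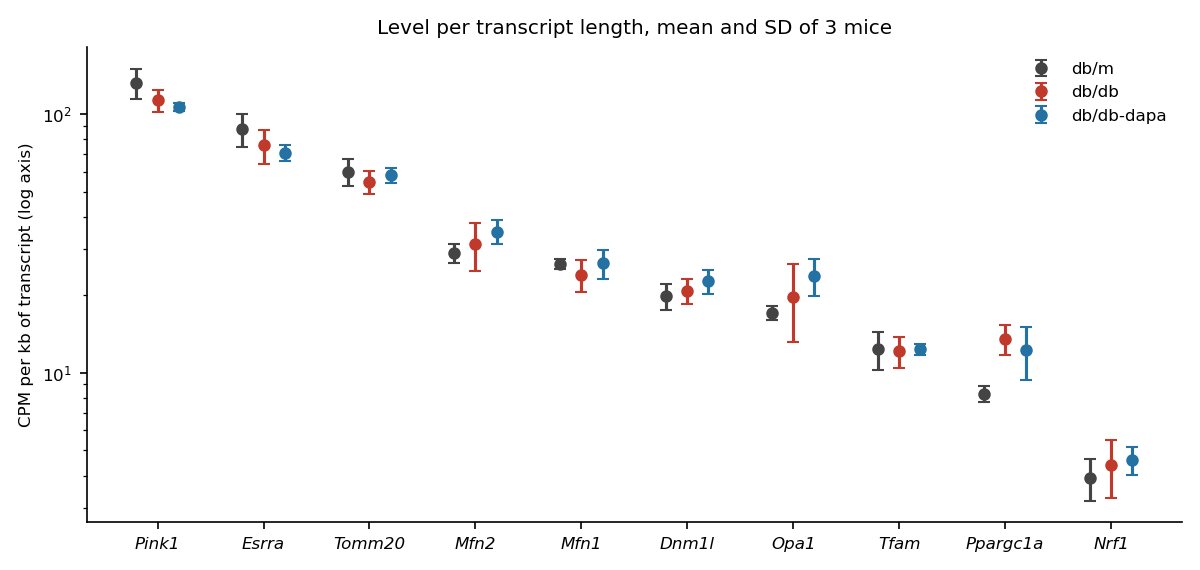
Level of each gene in CPM per kilobase of its longest coding transcript (log axis), mean and SD of 3 mice in each group, with genes ordered by their db/m level. Pink1 is highest in every group and Nrf1 lowest, and the mean of Ppargc1a goes from 8.28 in db/m to 13.5 in db/db mice.

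The coactivator is described first, then its partners. Ppargc1a (ENSMUSG00000029167.13, chr5:51454250-51567726 on the minus strand of GRCm38) was measured at 53.4, 57.2 and 49.99 CPM in the db/m mice, at 91.8, 73.8 and 95.4 CPM in the db/db mice and at 61.8, 76.5 and 98.1 CPM in the db/db-dapa mice. Each of the 6 diabetic mice was above each db/m mouse, whereas the treated and untreated diabetic mice overlapped. The group means were 53.5 ± 3.62, 87.0 ± 11.5 and 78.8 ± 18.3 CPM (SD, n = 3 each). Between db/db and db/m mice the log2 fold change was 0.70 (SE 0.196, 95% interval 0.27 to 1.13; adjusted p = 0.153 by edgeR's quasi-likelihood test). Its p-value ranked 431st of the 15583 genes. The interval reached past a log2 value of 1, so that a 2-fold difference lay within it. For the treated mice and db/m it was 0.56 (SE 0.195, 95% interval 0.13 to 0.99; adjusted p = 0.208 by edgeR). For treated and untreated db/db mice it was -0.14 (SE 0.194, 95% interval -0.57 to 0.28; adjusted p = 0.896 by edgeR). The db/db-dapa value rested on the mice used: without db/db-dapa replicates 2 and 3 and db/db replicate 3, the log2 fold change versus db/m was 0.21 in place of 0.56, that of db/db versus db/m was 0.62 in place of 0.70, and that of treated versus untreated db/db mice was -0.42 in place of -0.14. In that fit the treated group is db/db-dapa replicate 1 alone, the lowest of the 3 treated mice. The 2 comparisons versus db/m share their control mice and are not independent of each other.

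**Figure D2:**
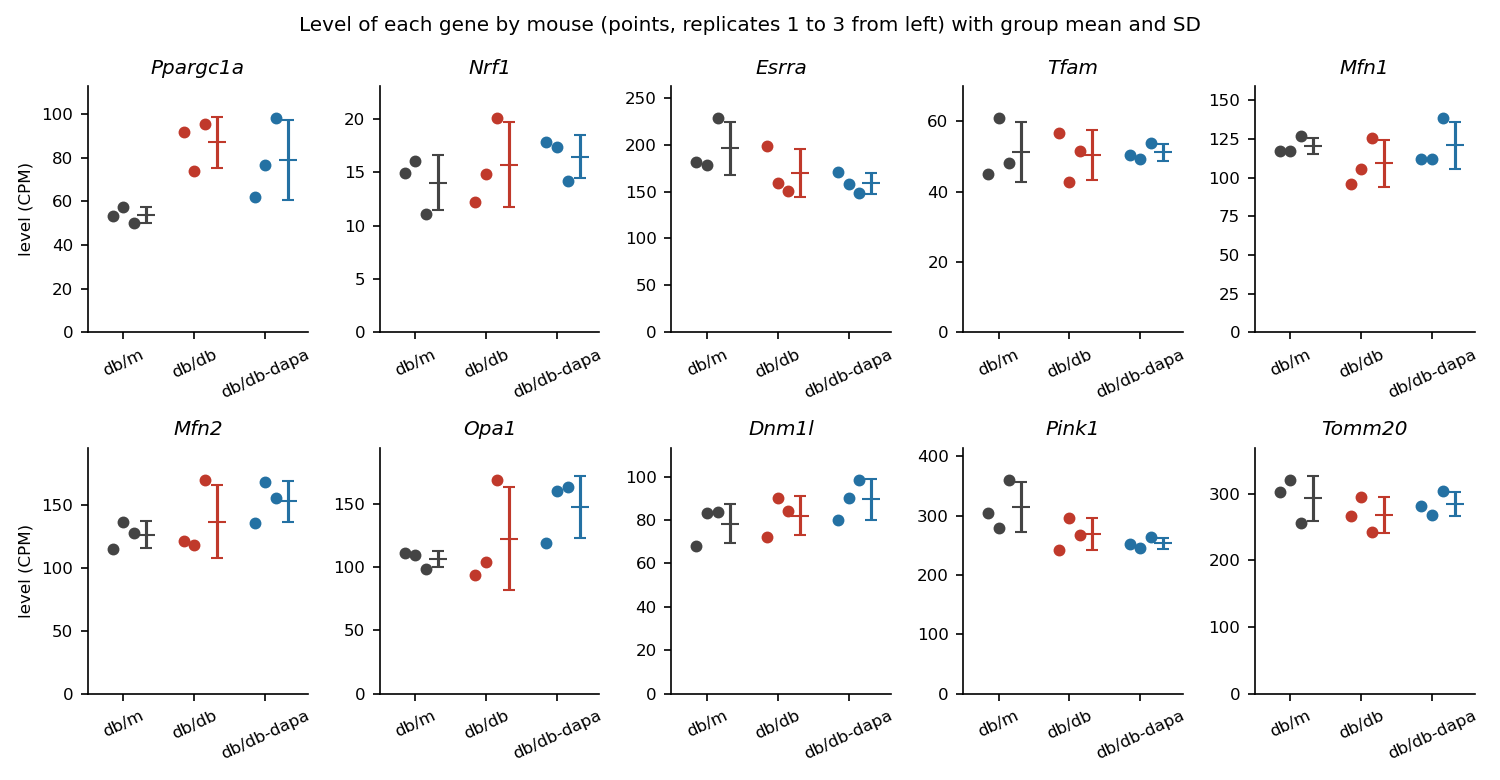
Level of each of the 10 genes in CPM (vertical axes, each starting at 0) in every mouse, with replicates 1 to 3 from left to right within a group and the group mean and SD beside them. For Ppargc1a all 6 diabetic mice lie above the 3 db/m mice, and for Opa1 the 3 mice near 160 to 169 CPM are db/db replicate 3 and db/db-dapa replicates 2 and 3.

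The promoter of Ppargc1a is shown because this gene differed most from its db/m level. RefSeq promoter sequence (GRCm38.p6) was matched for all 10 genes, and 4 motifs were searched on both strands from 250 bases before to 50 bases after each start: the NRF1 core GCGCATGC, the ERR element TCAAGGTCA, the cyclic AMP response element TGACGTCA and the GABP site CCGGAAGT. These positions are counted from the RefSeq start, whereas the sequences printed here end at the base before the GENCODE vM21 start. For Ppargc1a the RefSeq start lies 1 base downstream of the GENCODE start. The 249 bases upstream of the latter, chr5:51567727-51567975 on the minus strand, held none of the 4 exact matches, so no letters are in capitals.
Ppargc1a: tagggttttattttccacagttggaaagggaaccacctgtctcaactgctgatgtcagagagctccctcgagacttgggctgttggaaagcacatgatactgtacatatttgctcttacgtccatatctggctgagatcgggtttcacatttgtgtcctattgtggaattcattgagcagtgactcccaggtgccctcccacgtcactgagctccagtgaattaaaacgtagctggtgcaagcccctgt

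The partner transcription factors follow. Nrf1 (chr6:30047988-30153458, plus strand), which encodes nuclear respiratory factor 1, was measured at 14.96, 16.1 and 11.1 CPM in db/m, 12.2, 14.8 and 20.1 CPM in db/db and 17.9, 17.3 and 14.1 CPM in db/db-dapa mice. The 3 groups overlapped throughout. The log2 fold changes were 0.18 for db/db versus db/m and 0.22 for db/db-dapa versus db/m (SE 0.243 and 0.239; adjusted p = 0.782 and 0.624 by edgeR), and -0.05 and 0.34 without the 3 libraries that stood apart. With 36 to 159 counts a library, Nrf1 was the least deeply counted of the 10 genes, and its counting error alone was 7.93% to 16.7%.

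Esrra (chr19:6910977-6921813, minus strand), which encodes the orphan nuclear receptor ERRalpha, was measured at 181, 179 and 228 CPM in db/m, 198.5, 160 and 151 CPM in db/db and 170.5, 158 and 148 CPM in db/db-dapa mice. All 3 db/db-dapa mice were below all 3 db/m mice, while the db/db mice overlapped both. The means were 196 ± 28.04, 170 ± 25.3 and 159 ± 11.1 CPM (SD, n = 3 each), and the log2 fold change of db/db-dapa versus db/m was -0.30 (SE 0.174, 95% interval -0.69 to 0.08; adjusted p = 0.357 by edgeR). Without the 3 libraries that stood apart it was -0.20. Its exons share 73 bases with Trmt112 on the opposite strand, and whether reads were counted by strand is not given in the sources used here.

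Tfam (chr10:71225464-71238280, minus strand), the packaging and transcription factor of mitochondrial DNA, was the flattest of the regulators. It was measured at 44.9, 60.9 and 48.0 CPM in db/m, 56.8, 42.8 and 51.7 CPM in db/db and 50.4, 49.4 and 54.0 CPM in db/db-dapa mice. The 3 group means lay between 50.4 and 51.3 CPM. For db/db versus db/m the 95% interval of the log2 fold change ran from -0.41 to 0.36, so that differences within that range remained compatible with these values.

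Of the fusion genes Opa1 had the largest difference from db/m in the treated mice. Opa1 (chr16:29579334-29654884, plus strand), which fuses inner membranes and shapes cristae, was measured at 111, 110 and 98.9 CPM in db/m, 93.8, 104 and 169 CPM in db/db and 120, 160 and 164 CPM in db/db-dapa mice. All db/db-dapa mice were above all db/m mice, but the db/db group was split, with replicates 1 and 2 within or below the db/m range and replicate 3 above every other mouse. The log2 fold change of db/db-dapa versus db/m was 0.47 (SE 0.229, 95% interval -0.03 to 0.98; adjusted p = 0.293 by edgeR), and that of db/db versus db/m was 0.21 (SE 0.230; adjusted p = 0.730 by edgeR). Without the 3 libraries that stood apart, these values became 0.17 and -0.10. Those libraries had the 3 highest Opa1 levels, so leaving them out lowers both values by construction.

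Mfn2 (chr4:147873599-147904704, minus strand), an outer membrane fusion GTPase that also tethers mitochondria to the endoplasmic reticulum, had its highest levels in the same 3 mice. It was measured at 115, 136 and 128 CPM in db/m, 121, 118 and 170 CPM in db/db and 135, 168 and 155 CPM in db/db-dapa mice. The log2 fold change was 0.28 for db/db-dapa versus db/m (SE 0.185; adjusted p = 0.422 by edgeR), and 0.10 without the 3 libraries. Those libraries had the 3 highest Mfn2 levels, so leaving them out lowers the Mfn2 value by construction. Its paralogue Mfn1 (chr3:32529465-32579239, plus strand) was measured at 117, 117 and 127 CPM in db/m, 95.9, 106 and 126 CPM in db/db and 112, 112 and 138 CPM in db/db-dapa mice. The Mfn1 means of db/m and db/db-dapa mice, 120.4 ± 5.40 and 120.8 ± 15.3 CPM, were almost equal, and the db/db mean was 109 ± 15.3 CPM (SD, n = 3 each).

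Dnm1l (chr16:16312230-16358959, minus strand) encodes DRP1, the GTPase that constricts and divides mitochondria. It was measured at 68.0, 83.4 and 83.8 CPM in db/m, 72.1, 90.0 and 84.1 CPM in db/db and 79.9, 90.3 and 98.6 CPM in db/db-dapa mice. The groups overlapped in all 3 comparisons, and the largest log2 fold change, that of db/db-dapa versus db/m, was 0.19 (SE 0.167, 95% interval -0.17 to 0.56). Without the 3 libraries that value was 0.03. An antisense gene, Gm49521, shares 243 of its exon bases.

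Pink1 (chr4:138313409-138326307, minus strand), the kinase that gathers on damaged mitochondria and recruits Parkin, was measured at 305, 279 and 361 CPM in db/m, 242, 296 and 268 CPM in db/db and 252, 245 and 264 CPM in db/db-dapa mice. Its db/db-dapa levels were all below the db/m levels and close to one another. The means were 315 ± 41.9, 269 ± 26.8 and 253 ± 9.40 CPM (SD, n = 3 each), and the log2 fold change of db/db-dapa versus db/m was -0.31 (SE 0.164, 95% interval -0.67 to 0.05; adjusted p = 0.322 by edgeR). Leaving out the 3 libraries gave -0.32.

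Tomm20 (chr8:126930667-126945844, minus strand), a receptor of the outer membrane translocase that is widely used as a stain for mitochondrial mass, was measured at 303, 321 and 256 CPM in db/m, 267, 296 and 242 CPM in db/db and 282, 268 and 304 CPM in db/db-dapa mice. The groups overlapped in every comparison, with log2 fold changes of -0.13, 0.09 and -0.05 for db/db versus db/m, db/db-dapa versus db/db and db/db-dapa versus db/m (SE 0.164, 0.164 and 0.163). Its transcripts share stretches at 95% identity or more with 4 processed pseudogenes and 1 lincRNA that have no row in the table, so reads of these copies could have been assigned to Tomm20 or lost.

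**Figure D3:**
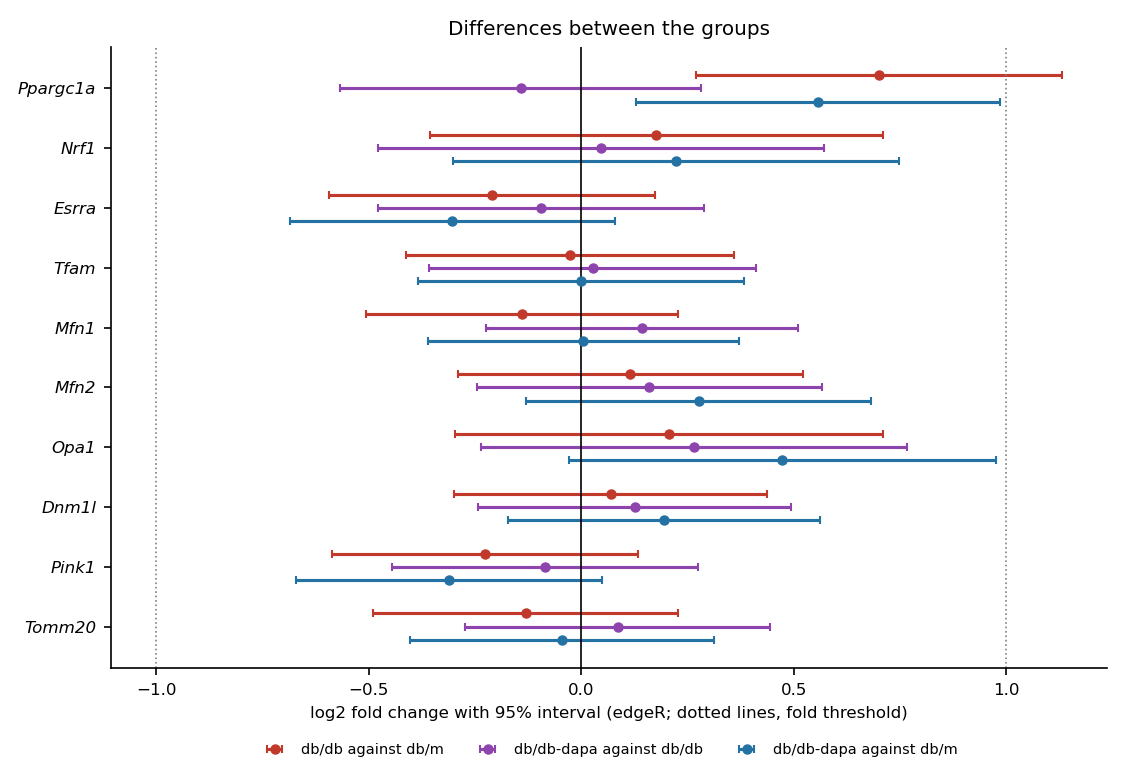
Log2 fold change of each gene with its 95% interval from edgeR for the 3 comparisons, with dotted lines at the fold threshold of 1 on the log2 scale. Of the 30 intervals 28 include 0, the exceptions being Ppargc1a in both diabetic groups versus db/m, and 29 lie within 1 log2 unit of 0.

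Counted over the 10 genes, the thresholds in use (a log2 fold change beyond 1 in either direction together with adjusted p under 0.1) called 0 of 10 in db/db versus db/m mice, where 1.26% of all genes were called, 0 of 10 in db/db-dapa versus db/db, where 0% were, and 0 of 10 in db/db-dapa versus db/m, where 1.05% were. At adjusted p under 0.1 alone, again 0 of 10 passed in each, beside 1.70%, 0% and 1.31% of all genes. At an unadjusted p under 0.05 the counts were 1, 0 and 1 of 10, the 1 being Ppargc1a both times, beside 13.7%, 5.19% and 18.2% of all genes. Groups did not overlap for 1, 0 and 4 of 10 genes, beside 16.4%, 10.2% and 28.1% of all genes. The 4 were Ppargc1a and Opa1, higher in the treated mice than in db/m, and Esrra and Pink1, lower. The share of 4 in 10 stands beside a background in which more than 1 gene in 4 also did not overlap.

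The treatment comparison had no call in the edgeR fit of all 9 mice: 0 of the 15583 genes passed in db/db-dapa versus db/db mice, 809 had an unadjusted p under 0.05, DESeq2 called 9 and limma with mouse weights called 449. That count rested on the mice used, since edgeR called 272 genes without db/db replicate 3, 1 without db/db-dapa replicate 2 and 4 without the 3 libraries that stood apart. The median log2 fold change of the 10 genes was 0.02 in db/db versus db/m, 0.07 in db/db-dapa versus db/db and 0.10 in db/db-dapa versus db/m, beside 0.02, -0.01 and -0.02 over all genes tested. Members lay on both sides of 0 in each comparison, 5 higher and 5 lower, 7 higher and 3 lower, and 6 higher and 4 lower.

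Mouse to mouse, several of the genes tracked the first principal component, which was computed from all genes, these included. Over the 9 mice Pearson's r with its score was 0.969 for Opa1, 0.885 for Mfn2, 0.705 for Nrf1 and 0.657 for Ppargc1a, and -0.879 for Esrra. Taken as deviations from the group means, the values were 0.958, 0.832, 0.654, 0.654 and -0.815. Tomm20 and Tfam had r of -0.0789 and 0.208. These are descriptions of 9 points that share 1 processing, and the sum of leukocyte markers and library depth also differed along the component. Opa1 and Mfn2, which fuse the inner and the outer membrane, had the highest r of any pair among the 10 genes, 0.912 (0.869 within groups). Opa1 and Esrra had the lowest, -0.792 (-0.712 within groups). The 4 genes whose levels were most like those of Ppargc1a over the 9 mice were Arid4b (r = 0.973), Etnk1 (0.969), Fcho2 (0.965) and Srrm2 (0.965).

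**Figure D4:**
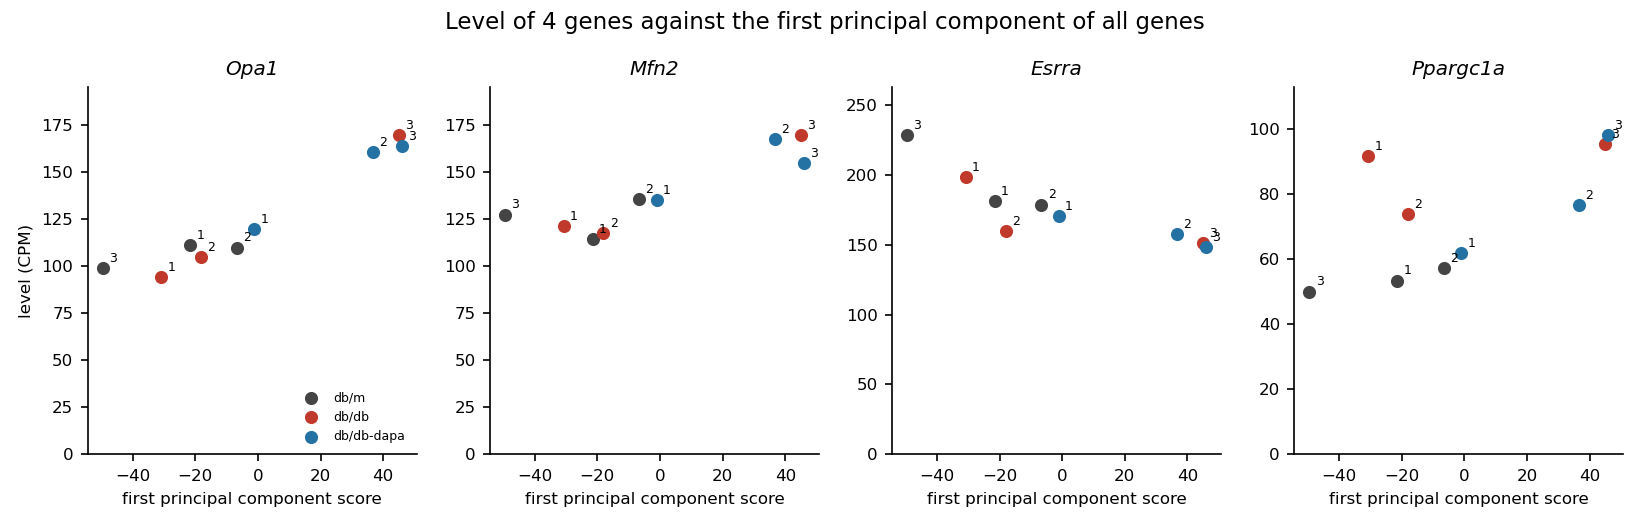
Level in CPM of Opa1, Mfn2, Esrra and Ppargc1a (vertical axes from 0) versus the first principal component score of each mouse, with points coloured by group and numbered by replicate. Db/db replicate 3 and db/db-dapa replicates 2 and 3 lie at scores of 36.7 to 45.9, where Opa1 is high and Esrra low, while Ppargc1a in db/db replicates 1 and 2 is high at negative scores.

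Opa1 and Esrra were the 2 members whose promoters held the NRF1 core, and their upstream sequences are printed to show it. The core GCGCATGC, in either orientation, was in 2 of the 14 RefSeq promoters of the 10 members, beside 2.71% of all 32851 RefSeq promoters. Counted from the RefSeq start, it lay in Opa1 at -59 to -52 and again, overlapping, at -57 to -50 on the reverse complement. In Esrra it lay at -34 to -27 on the reverse complement. The GABP site was in Mfn1 at -44 to -37 and in Tfam at -47 to -40 by the same count. It was thus in 2 of those 14 promoters, beside 3.89% of all promoters. The RefSeq and GENCODE starts coincide in Opa1, whereas the RefSeq start lies 5 bases downstream of the GENCODE start in Esrra and 17 bases downstream in Mfn1, so that a match in the printed sequence is nearer to its end by that number of bases. In Tfam the starts are 236 bases apart, and its sequence is not printed. The ERR element and the cyclic AMP response element, in 0.423% and 1.79% of all promoters, were in none of the members' windows. Each match is a match of letters and not a measured site. The sequences are the 100 bases before the GENCODE start, with matches in capitals: Opa1 at chr16:29579234-29579333 (plus strand), Esrra at chr19:6921814-6921913 (minus strand) and Mfn1 at chr3:32529365-32529464 (plus strand).
Opa1: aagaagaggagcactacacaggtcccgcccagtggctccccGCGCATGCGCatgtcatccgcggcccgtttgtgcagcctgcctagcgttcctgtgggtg
Esrra: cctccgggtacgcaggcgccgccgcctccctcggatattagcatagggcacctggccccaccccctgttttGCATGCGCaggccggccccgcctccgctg
Mfn1: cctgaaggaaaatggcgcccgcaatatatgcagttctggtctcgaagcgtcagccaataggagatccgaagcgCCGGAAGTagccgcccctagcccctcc

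Beyond the 10 genes, 172 further genes were set out in 7 lists by role, and 169 of them were tested. None of the 169 was called in any of the 3 comparisons, and the counts at an unadjusted p under 0.05 were 19, 2 and 32, or 11.2%, 1.18% and 18.9% of the lists, beside the 13.7%, 5.19% and 18.2% of all genes given above. Gdap1 and Calcoco2 had 0 counts in all mice, and Marchf5 was not matched by symbol. The highest and lowest genes of a list are named among those with a mean of at least 5 CPM.

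Protein import genes lay to the low side in both diabetic groups. Of 36 genes for the TOM and TIM translocases and their helpers, 33 had a lower mean in db/db than in db/m mice, with a median log2 fold change of -0.23 beside 0.02 for all genes. 4 of the 36 had an unadjusted p under 0.05, all lower, beside 13.7% of all genes in either direction. None passed adjustment (lowest adjusted p = 0.236 by edgeR). In db/db-dapa versus db/m mice 28 of 36 were lower, with a median of -0.24. Of the 36, 9 had an unadjusted p under 0.05, all lower, beside 18.2% of all genes in either direction. Treated mice had 21 of 36 higher than untreated db/db mice, with a median of 0.04. By upper-quartile scaling the count was 16 of 36 and the median -0.02, beside -0.07 for all genes by that scaling. Timm10, a small chaperone of the intermembrane space, was at 30.9, 25.3 and 42.4 CPM in db/m, 21.1, 24.2 and 16.9 CPM in db/db and 18.3, 22.1 and 24.1 CPM in db/db-dapa mice. Every diabetic mouse was thus below every db/m mouse for Timm10, with a log2 fold change of -0.67 in db/db (SE 0.232; adjusted p = 0.236 by edgeR). Mtx3, a metaxin of the outer membrane, went the other way at 0.45 (SE 0.253), and Tomm70a and Tomm7 were the highest and lowest in db/db-dapa versus db/db, at 0.45 and -0.53. Without db/db replicate 3 and db/db-dapa replicates 2 and 3, 30 and 32 of 36 were lower versus db/m, with medians of -0.17 and -0.19. The 32 and the -0.19 rest on db/db-dapa replicate 1 alone. Without db/m replicate 3, which had the highest Timm10 level, the median for db/db-dapa versus db/m was -0.10, and without db/db replicate 2 that for db/db versus db/m was -0.36.

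The genes that maintain and transcribe mitochondrial DNA leaned the same way in number, 19 of 26 lower in db/db than in db/m mice, with a median of -0.14, and 17 of 26 lower in treated mice than in db/m, also with a median of -0.14. These medians rested in part on single mice: without db/m replicate 3 the first was -0.03, and without db/db-dapa replicate 3 the second was -0.07. Polrmt, the mitochondrial RNA polymerase, was the exception with the smallest p of the list. It was measured at 37.5, 40.0 and 42.0 CPM in db/m, 63.6, 53.2 and 61.9 CPM in db/db and 52.7, 53.8 and 52.6 CPM in db/db-dapa mice, so that every diabetic mouse was above every db/m mouse. The log2 fold change in db/db was 0.58 (SE 0.150; adjusted p = 0.113 by edgeR). Tfb1m, a methyltransferase of the mitochondrial ribosomal RNA, was at 7.63 ± 1.33 CPM in db/m, 4.71 ± 1.46 CPM in db/db and 7.23 ± 1.19 CPM in treated mice (SD, n = 3 each; adjusted p = 0.348 for db/db versus db/m by edgeR). Mterf2, a transcription factor of the same family as the mitochondrial terminators, was lowest in db/db-dapa versus db/db at -0.61 (SE 0.287).

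Among 26 further regulators of biogenesis 16 had a higher mean in db/db than in db/m mice, with a median of 0.10, and this count was 13 of 26 without the 3 libraries. Leaving out db/db replicate 3 alone took the median to -0.0016, and leaving out replicate 2 of that group took it to 0.21. Nrip1, a corepressor of nuclear receptors that opposes PGC-1alpha, had the highest fold change of the list. It was at 9.76, 11.5 and 2.89 CPM in db/m, 19.03, 12.8 and 44.7 CPM in db/db and 11.2, 35.8 and 30.2 CPM in db/db-dapa mice, with its highest levels in the same 3 mice as Opa1 and a log2 fold change of 1.66 in db/db (SE 0.575; adjusted p = 0.233 by edgeR). Sirt1, the deacetylase that activates PGC-1alpha, was at 59.4 ± 28.1 CPM in db/m and 43.1 ± 9.39 CPM in db/db mice. Rxra and Esrrb, both nuclear receptors, were the highest and lowest in db/db-dapa versus db/db, at 0.41 and -0.26.

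Of 12 known targets of PGC-1alpha and ERRalpha, 7 were higher and 5 lower in db/db than in db/m mice, with a median of 0.02, which ran from -0.05 to 0.09 with 1 mouse left out. Pdk4, the kinase that shuts off pyruvate dehydrogenase, had the largest fold of all the lists: 13.1, 23.03 and 17.8 CPM in db/m, 26.2, 246 and 47.1 CPM in db/db and 57.1, 85.1 and 53.5 CPM in db/db-dapa mice. All diabetic mice were above all db/m mice, and db/db replicate 2 alone was far above the rest. That mouse also had the highest sum of the 5 red cell markers, 1717 CPM beside 34.7 to 509 CPM in the others, and the part of this in the Pdk4 value was not tested. The log2 fold change in db/db was 2.57 (SE 0.667; adjusted p = 0.114 by edgeR). Cycs, the electron carrier cytochrome c, was at 935 ± 73.3 CPM in db/m, 641 ± 209 CPM in db/db and 620 ± 66.1 CPM in treated mice (SD, n = 3 each), again without overlap between either diabetic group and db/m (adjusted p = 0.322 and 0.230 by edgeR). Acadm and Cpt1b, of fatty acid oxidation, bracketed the list in db/db-dapa versus db/db at 0.36 and -1.13, the latter with 3.65 ± 0.657 CPM in treated and 8.18 ± 2.94 CPM in untreated db/db mice (adjusted p = 0.854 by edgeR).

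Fusion, fission and mitophagy genes lay on both sides of 0. In db/db versus db/m mice 15 of 24 fusion and cristae genes, 10 of 16 fission genes and 16 of 29 mitophagy genes were lower, with medians of -0.05, -0.11 and -0.04. In db/db-dapa versus db/m mice 13 of 24, 8 of 16 and 20 of 29 were higher, with medians of 0.18, -0.05 and 0.07, beside -0.02 for all genes. Without the 3 libraries these medians were -0.05, -0.115 and -0.04, with 11, 5 and 13 higher. The treated side of every such fit is db/db-dapa replicate 1 alone. In db/db-dapa versus db/db mice 14 of 24 fusion and cristae genes and 18 of 29 mitophagy genes were higher, with medians of 0.01 and 0.05. By upper-quartile scaling 10 and 13 were higher, with medians of -0.0565 and -0.0182, beside -0.0734 for all genes by that scaling. Without the 3 libraries 12 and 11 were higher, with medians of -0.0263 and -0.0382. Trak1, an adaptor for mitochondrial transport, was the highest of the fusion list in db/db versus db/m at 0.64 (SE 0.254, adjusted p = 0.294 by edgeR) and 1810009A15Rik the lowest at -0.44. The Trak1 levels were 62.5, 75.6 and 71.8 CPM in db/m and 89.7, 83.8 and 153 CPM in db/db mice, with db/db replicate 3 the highest. Opa3 and Chchd6 bracketed the list in db/db-dapa versus db/db at 0.83 and -0.41. Opa3 was at 14.96, 14.6 and 44.6 CPM in db/db and 31.4, 53.7 and 49.8 CPM in db/db-dapa mice. Db/db replicate 3 was the only db/db mouse above any treated mouse. Without that mouse the log2 fold change of Opa3 was 1.62 and was called (adjusted p = 0.0674 by edgeR). Leaving out the mouse that made the groups overlap raises the difference by construction, so that call is no separate evidence for Opa3. The same omission also raised the number of genes called in this comparison, as given above. Akap1, the outer membrane anchor of protein kinase A that keeps DRP1 phosphorylated, was at 53.4, 65.6 and 56.4 CPM in db/m, 68.7, 70.2 and 117 CPM in db/db and 91.7, 107 and 161 CPM in db/db-dapa mice. Its 3 highest levels were in the 3 libraries that stood apart. The Akap1 difference of 1.04 on the log2 scale for db/db-dapa versus db/m (SE 0.261; adjusted p = 0.112 by edgeR) was the largest of any fission gene in that comparison. Mtfp1, an inner membrane fission protein, was at -0.54 in db/db (SE 0.187; adjusted p = 0.232 by edgeR), and Fis1, a DRP1 receptor, at -0.40 in db/db-dapa versus db/db. The latter comparison had 14 of 16 fission genes higher, with a median of 0.09 beside -0.01 for all genes. Without the 3 libraries 11 of 16 were higher, and with 1 mouse left out the median ran from 0.05 to 0.15.

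Ulk1, the kinase that starts autophagy, was at 76.4, 94.8 and 68.4 CPM in db/m, 131.5, 108 and 122 CPM in db/db and 81.5, 98.7 and 99.4 CPM in db/db-dapa mice. The db/db mice were above all 6 others. Its log2 fold change was 0.59 in db/db versus db/m (SE 0.178; adjusted p = 0.178 by edgeR) and -0.37 in db/db-dapa versus db/db (SE 0.177; adjusted p = 0.854 by edgeR), and these comparisons share the db/db mice. Map1lc3a, an LC3 protein of the autophagosome, was at 132 ± 40.5 CPM in db/m and 87.4 ± 24.3 CPM in db/db mice (SD, n = 3 each), and Bcl2l13, a mitophagy receptor, was the highest of the list in db/db-dapa versus db/db at 0.43 (SE 0.260). In bulk RNA of sorted cells, fewer cells of a type and less RNA per cell cannot be told apart for any of these genes.

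**Figure D5:**
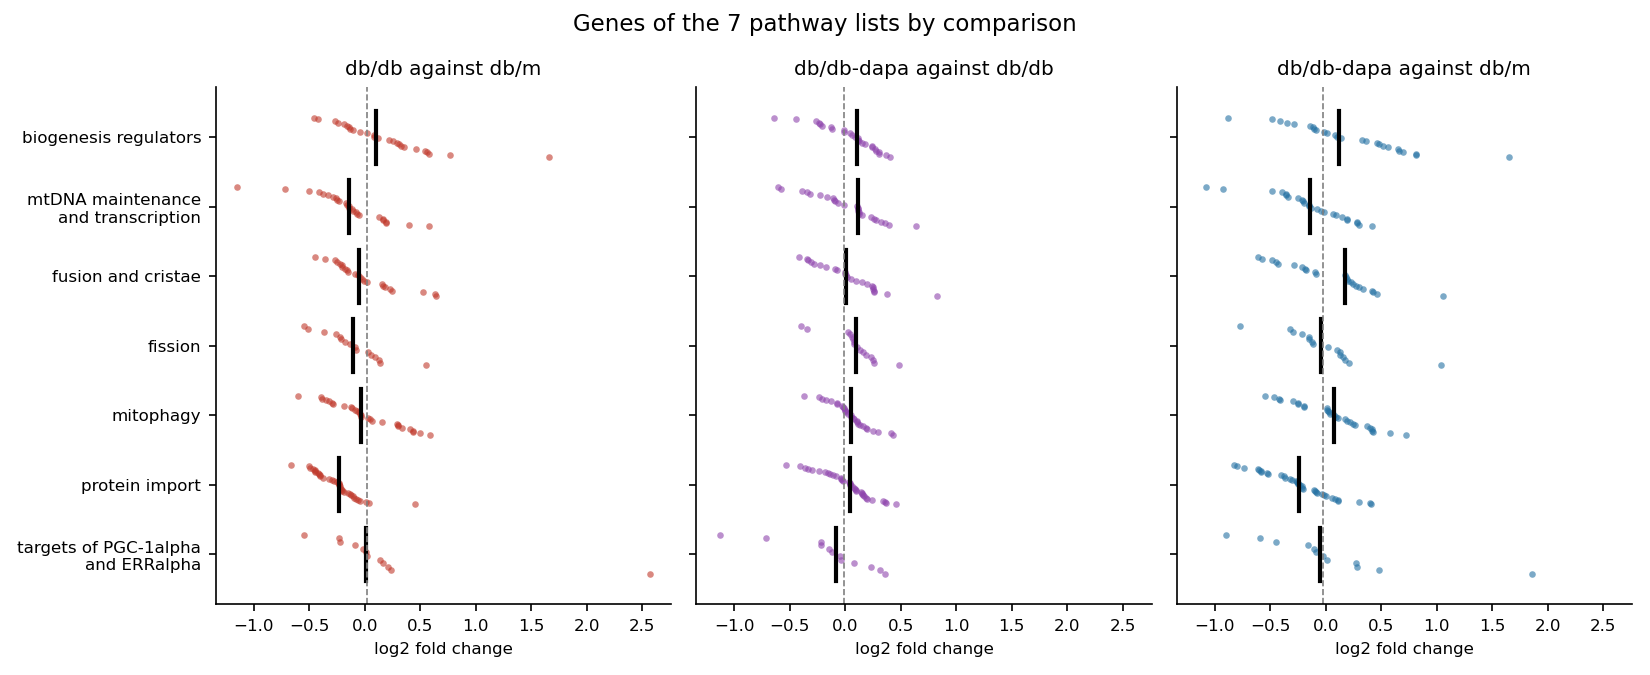
Log2 fold change of each tested gene (points) in the 7 lists for the 3 comparisons, with the list median as a black bar and the median of all 15583 genes as a dashed line. Protein import sits to the left in both comparisons versus db/m, with medians of -0.23 and -0.24, and near 0 in db/db-dapa versus db/db at 0.04.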

How the data were processed

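RNA sequencing of sorted proximal tubular cells gave 1 library for each of 9 mice, grouped by the sample titles. Per the labels, libraries came from a TruSeq stranded mRNA kit and the authors used TopHat2 2.0.13, Bowtie2 2.2.3, SAMtools 0.1.19 and Cufflinks 2.2.1 on the mm10 build. The deposited table is named as FPKM but holds estimated counts, since 85.9% of nonzero entries are whole numbers and column sums differ between mice. How multi-mapped reads and strand were handled is not given in the sources used here. Counts were rounded, and genes with at least 0.3 CPM in at least 2 of the 9 mice were kept, 15583 of 24421 (6100 were at 0 in all mice). After TMM scaling, edgeR 4.0.16 (R 4.3.3) fitted a quasi-likelihood model to all 9 mice with no covariate, and p-values were adjusted over all genes by Benjamini-Hochberg. Calls needed a log2 fold change beyond 1 in either direction together with adjusted p under 0.1, thresholds taken from the study's methods. CPM were scaled by TMM. Replicate libraries had a Pearson r of 0.955 to 0.992 on log2(CPM + 1) with a common biological coefficient of variation of 0.259. The 10 genes were counted at 36 to 2687 reads a library, a counting error of 1.93% to 16.7%, beside a variation within groups of 3.71% to 33.3%.

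Members and lists were chosen with earlier results of these data known. Named genes were the 10 members and, in each list, genes with adjusted p under 0.1 (there were none) and those with the highest and lowest fold change in db/db versus db/m and in db/db-dapa versus db/db among genes with a mean of at least 5 CPM; for Ppargc1a the 4 most correlated genes were added, and values of these genes in the other comparison are given too. Alternatives were DESeq2 1.42.0, limma 3.58.1 on log2(CPM + 1) or log2(CPM + 0.1) and with mouse weights, other scalings and filters, 2-group fits, a replicate block and leaving out mice. Gene positions came from GENCODE vM21 and copies from blastn 2.17.0 at 95% identity over at least 101 bases.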

Additional observations from a re-analysis of the deposited data

How the results depend on the processing

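With 3 mice a group the 95% intervals of the 10 genes reached 0.358 to 0.533 log2 units to either side, and depth limited Nrf1 most. Of 30 results on single members, 18 kept their direction under all 10 alternatives with every mouse and with each of 9 mice left out. No alternative called a member by both thresholds. At adjusted p under 0.1 alone, DESeq2 had 1 in db/db versus db/m (Ppargc1a, adjusted p = 0.0451), limma with mouse weights had 3 in db/db-dapa versus db/m (Ppargc1a, Opa1 and Mfn2, adjusted p = 0.0281, 0.0312 and 0.0575), and leaving out 1 mouse gave 0 to 1, the 1 being Ppargc1a without db/db replicate 3 (adjusted p = 0.0998). In these comparisons each of those fits also called more of all genes by both thresholds than the main fit did, as counted below. The share of all genes at adjusted p under 0.1 alone is not given for them, so these member counts stand without a background. Over its alternatives with every mouse, the adjusted p of Ppargc1a ran from 0.0451 to 0.24 in db/db versus db/m and from 0.0281 to 0.269 in db/db-dapa versus db/m.

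Genes called in db/db versus db/m (197) numbered 353 by DESeq2, 115 in the 2-group fit and 85 to 230 with a mouse left out (85 and 126 when db/m replicate 1 or 3 was absent, 113 when db/db replicate 2 was). They numbered, for db/db-dapa versus db/db (0), 9 by DESeq2, 449 with mouse weights, 0 to 272 with a mouse left out (272 without db/db replicate 3, 1 without db/db-dapa replicate 2) and 4 without the 3 libraries apart. For db/db-dapa versus db/m (164) the counts were 275 with no filter, 463 by DESeq2, 1619 with mouse weights, 630 in the 2-group fit, 49 without the 3 libraries, and 14 to 664 with a mouse left out (14 and 41 without db/db-dapa replicates 2 and 3, 264 without replicate 1; 37, 78 and 54 without db/m replicates 1, 2 and 3; 664 without db/db replicate 3).

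List genes called (0) became, in db/db versus db/m, 1 with no filter (Pdk4), 2 by DESeq2 (Pdk4 and Nrip1), 1 with the replicate block (Pdk4), 1 without the 3 libraries (Pdk4) and 0 to 1 with a mouse left out. Of db/db-dapa versus db/db they became 2 with mouse weights (Cpt1b and Opa3) and 0 to 1 with a mouse left out. For db/db-dapa versus db/m they became 1 with no filter (Akap1), 2 by DESeq2 (Akap1 and Nrip1), 6 with mouse weights, 4 in the 2-group fit (Akap1, Nrip1, Pdk4 and Opa3) and 0 to 4 with a mouse left out. The cause was not tested in any case.

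The members' median ran from -0.0765 to 0.116 in db/db versus db/m and from 0.0432 to 0.192 in db/db-dapa versus db/m with a mouse left out, and was -0.0714 and 0.0027 without the 3 libraries. Reversals were of small values. With mouse weights Opa1 was at -0.0398 in db/db versus db/m. By upper-quartile scaling Nrf1 was at -0.0046 and Tfam at -0.041 in db/db-dapa versus db/db. That scaling put the median of all genes there at -0.0734, beside -0.00935 in the main fit. For db/db-dapa versus db/m it put that median at -0.0742, beside -0.022. In db/db-dapa versus db/m, Tfam was at 0.00302 with no filter, 0.0107 and 0.0111 by limma with pseudocounts of 1 and 0.1, 0.018 with mouse weights and 0.0058 in the 2-group fit. Mfn1 there was at -0.0045 with DESeq2 size factors, -0.0523 by upper-quartile scaling, -0.0115 with the filter of 1 CPM in 3 mice, -0.0038 by DESeq2, -0.0021 and -0.0022 by limma with those pseudocounts, -0.015 with mouse weights and -0.0033 with the replicate block. Without the 3 libraries, Nrf1, Mfn2 and Opa1 were at -0.0539, -0.0779 and -0.104 in db/db versus db/m. That fit leaves out db/db replicate 3, the db/db mouse with the highest level of each, which lowers them by construction. Dnm1l was at -0.0207 in db/db-dapa versus db/db and Mfn1 at -0.103 in db/db-dapa versus db/m in the same fit. There the lone db/db-dapa mouse is assumed to vary like the others.

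With a mouse left out, the ranges that crossed 0 were, in db/db versus db/m, -0.0572 to 0.314 for Nrf1, -0.116 to 0.116 for Tfam, -0.0837 to 0.212 for Mfn2, -0.109 to 0.364 for Opa1 and -0.0244 to 0.152 for Dnm1l. The ranges were, for db/db-dapa versus db/db, -0.316 to 0.0136 for Ppargc1a, -0.0924 to 0.285 for Nrf1, -0.156 to 0.0322 for Esrra and -0.0784 to 0.115 for Tfam. Those for db/db-dapa versus db/m were -0.0886 to 0.143 for Tfam, -0.0936 to 0.0615 for Mfn1 and -0.139 to 0.0247 for Tomm20.

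Whether mice with the same replicate number belong together could not be decided, since so few mice a group cannot exclude it. Deviations from the group means correlated at -0.323 to 0.563 over 9 same-numbered pairs. A mouse correlated best with its own number in 6 of 18 cases. For treated versus untreated diabetic mice, the correlations were 0.402, -0.159 and 0.563 for replicates 1, 2 and 3. With the replicate block the log2 fold change of Ppargc1a in db/db versus db/m was 0.69, with adjusted p = 0.22 by edgeR.

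Counts for the 7 lists under these settings, and the fits without the 3 libraries, were chosen after seeing the data. Protein import had 30 to 34 of 36 genes lower in db/db versus db/m under every setting.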
